A study of Aspergillus aculeatus with 24 samples.

Results

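In wheat bran-soybean medium, 104 of the 8615 gene IDs measured in Aspergillus aculeatus were lower on day 6 than on day 3 in each of 3 strains. In glucose, 24 of them fell between the same days in at least 1 strain (23.1%, against 15.1% of all IDs tested), 9 rose in at least 1 (8.65%, against 14.4%), and 71 passed the test in none (68.3%, against 71.1%). Of the falls, 23 were in BCC56535 and 1 in BCC199, and BCC56535 held all 9 rises. A fit of the glucose libraries of each strain alone called 2 falls in BCC56535 and no other change. The share of all IDs called by that fit is not given, so these counts do not set the 104 apart. The 104 IDs were chosen by their wheat bran-soybean values. For each strain, D was the log2 ratio of the mean of the 2 day 6 values to the mean of the 2 day 3 values, and an ID was kept when D was -0.75 or lower in all 3 strains and its day 3 mean was at least 100 normalized reads in each. The 104 IDs are 1.21% of all IDs and 1.63% of the 6368 IDs that meet the minimum on day 3. Because the wheat bran-soybean values made the choice, they are given below as a description, and tests are read only for glucose. The choice did not use the glucose values. The spread behind each test, however, was pooled over all 24 libraries, those in wheat bran-soybean included.

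Aspergillus aculeatus is a filamentous fungus known for secreting enzymes that take apart plant cell walls. Wheat bran supplies plant cell wall polymers and starch, and soybean supplies protein and further cell wall material. In filamentous fungi, easily used sugars such as glucose keep many genes for breaking down polymers at a low level, and sugars released from those polymers switch such genes on. A culture changes as it consumes its medium, so the transcripts of its early growth need not be those of a later day. The deposited table gives IDs without gene names, and none of the IDs matched the reference annotation of the species, so no role can be given to any of the 104.

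RNA came from mycelium of the strains BCC56535, BCC199 and HUT2365, grown with aeration at 30 °C in glucose or in wheat bran-soybean medium and collected on day 3 (72 h) or day 6 (144 h). The labels give each strain by its collection name only, with no allele, and describe the strains as unequal in degrading plant biomass. With strain, medium and day crossed there were 12 groups of 2 libraries, A and B, described as biological replicates. Whether A and B were grown separately is not said, and p-values rest on the spread within these pairs, part of which may be technical. Values are normalized reads as deposited, where 1 stands for no read, and the values of a group are given for library A and then B.

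The 24 libraries held between 19248977 and 30003709 reads, and 3 reads corresponded to 2.37 to 4.48 normalized reads. The lowest total was that of HUT2365 in wheat bran-soybean on day 3, library B, and this group also had loosely matching libraries: 13 of the 104 IDs differed by more than 3-fold between A and B there, against 0 in HUT2365 on day 6 and 0 in BCC199 on day 3 in the same medium. Other groups with wide pairs were BCC199 in glucose on day 3, with 15 such IDs, and BCC56535 on day 3, with 11 such IDs in either medium. BCC56535 on day 6 was similar, with 10 such IDs in wheat bran-soybean and 9 in glucose. Without HUT2365 day 3 library B, 77 of the 104 IDs still met the rule and 16 others joined them. A core of 49 IDs met it whichever wheat bran-soybean library was left out.

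As a group, the 104 IDs took about the same share of the reads in every strain on day 3 in wheat bran-soybean. Their share was 2.22% and 2.15% in the 2 libraries of BCC56535, 2.14% in both of BCC199, and 2.03% and 2.02% in HUT2365. RNA came from whole mycelium, in which fewer cells making a transcript and less of it per cell cannot be told apart. On day 6 the share was 0.412% and 0.407% in BCC56535, 0.465% and 0.398% in BCC199, and 0.781% and 0.855% in HUT2365. In glucose the strains did not share a level. BCC56535 had 1.03% and 1.45% on day 3 and 0.695% and 0.926% on day 6, the highest glucose values of the 3 strains. BCC199 had 0.291% and 0.545% on day 3 and 0.498% and 0.478% on day 6, and HUT2365 stayed between 0.601% and 0.680% across its 4 glucose libraries. In BCC56535 both glucose day 6 libraries lay under both day 3 libraries, while in BCC199 the days overlapped. The 10 most abundant of the 104 IDs held 48% of these reads, taken over all 24 libraries together, so they weigh heavily in the share.

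**Figure D1:**
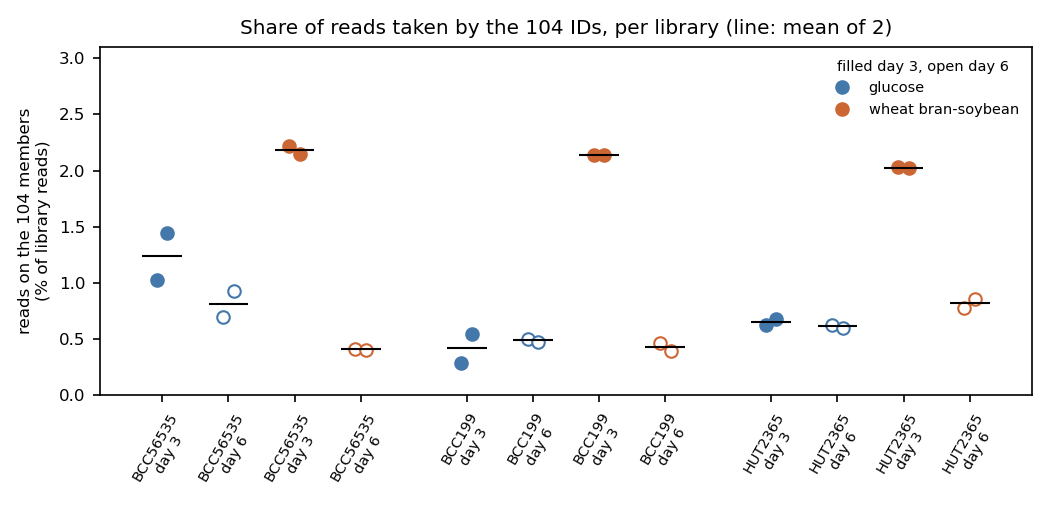
Share of all reads that fell on the 104 IDs, in percent, for each of the 24 libraries, arranged by strain and day. Points are libraries (blue glucose, orange wheat bran-soybean, filled day 3, open day 6) and lines are means of 2; the wheat bran-soybean day 3 points lie between 2.02% and 2.22% in all 3 strains, and every other library is under them.

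The depth of the fall in wheat bran-soybean varied from strain to strain. The median D of the 104 IDs was -2.49 in BCC56535, -1.88 in BCC199 and -1.46 in HUT2365, beside 0.02, -0.03 and -0.03 over the 6368 IDs at the same level. D ran from -8.02 to -0.83 in BCC56535, from -6.16 to -0.78 in BCC199 and from -3.64 to -0.75 in HUT2365. A level at least 4 times lower on day 6 (D of -2 or lower) was seen in 69, 50 and 30 of the IDs in the same order, and in all 3 strains in 13. BCC56535 had the most negative D for 59 IDs, BCC199 for 33 and HUT2365 for 12. The levels from which they came down were alike: median day 3 means were 1879, 1778 and 1948 normalized reads, and the highest day 3 mean belonged to BCC56535 for 36 IDs, to BCC199 for 36 and to HUT2365 for 32. The median day 6 means were 327, 403 and 610.

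Requiring all 3 strains removed most candidates. Of the 6368 IDs at the level required, D was -0.75 or lower in 1258 in BCC56535, 430 in BCC199 and 624 in HUT2365, and 1148 of them passed in a single strain, 426 in 2 and 104 in 3. Both day 6 libraries lay under both day 3 libraries for 102 of the 104 IDs in BCC56535, all 104 in BCC199 and 91 in HUT2365, where over all 8509 IDs tested the shares were 35.4%, 38.0% and 23.5%. A fit with limma, a linear model with moderated variance, to log2 values of all 24 libraries called 92, 71 and 48 of the 104 lower in BCC56535, BCC199 and HUT2365, beside 19.5%, 5.48% and 4.70% of all IDs. Nothing is read from these counts, since they come from the values that made the choice, and the 104 passed the filter on low values through their wheat bran-soybean day 3 level. The days overlapped in at least 1 strain for 14 of the IDs.

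Close to the limit the rule separates similar IDs. acu00445_1 is the member with the weakest D, -0.752 in HUT2365, and acu02448_1, with -0.747 in HUT2365, is the nearest ID outside. By level, acu00990_1 is the member nearest the minimum, with a day 3 mean of 103.6 in HUT2365, and acu06653_1 missed it with 98.6 in BCC199. The wheat bran-soybean day 3 libraries of acu06653_1 in HUT2365 held 166 and 8349.5 normalized reads, an example of the gap between libraries A and B in that group.

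**Figure D2:**
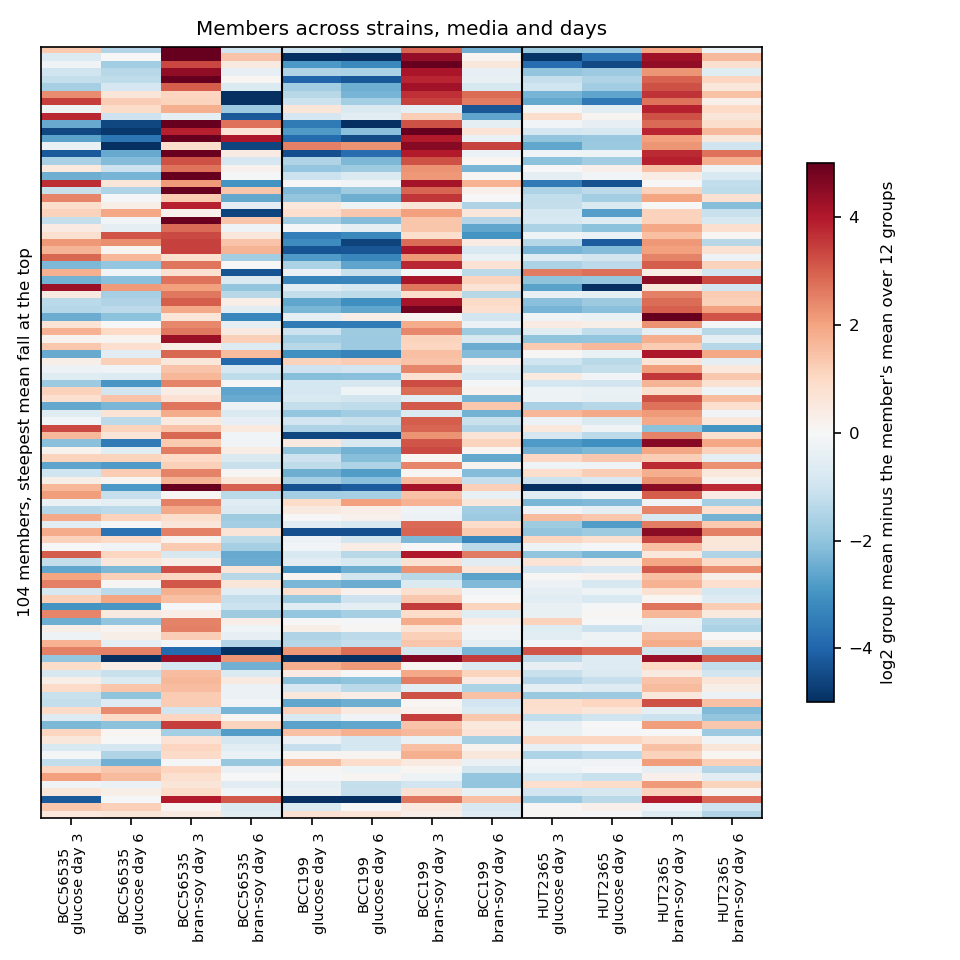
Each row is 1 of the 104 IDs, ordered by its mean D with the most negative at the top, and each column 1 of the 12 groups, in blocks of 4 per strain. Color is the log2 group mean minus the mean of that ID over the 12 groups, with the darkest shades standing for differences of 5 or more; the wheat bran-soybean day 3 column is mostly red in each block, while the glucose columns vary from ID to ID.

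The most abundant of the 104 was acu04174_1. In BCC56535 its wheat bran-soybean values were 101264 and 96511 normalized reads on day 3 and 15428 and 29746 on day 6. BCC199 had 53031 and 47961 and then 6204 and 6779, and HUT2365 46410.4 and 82935 and then 36973 and 39314. The days were apart in every strain, but the mean was 7.78 times lower on day 6 in BCC199 and 1.70 times lower in HUT2365 (ratios are taken without the constant of 1). Glucose divided the strains more sharply. BCC56535 held 9614 and 8547 on day 3 and 183 and 596 on day 6 there, BCC199 118 and 159 and then 169 and 153, and HUT2365 17.7 and 162 and then 41.6 and 5.74. Among the 12 glucose libraries, the BCC56535 day 3 pair stood far above the rest. Means in wheat bran-soybean on day 3 were 10.9, 367 and 729 times those of glucose in BCC56535, BCC199 and HUT2365.

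acu06465_1, the next most abundant, was high in both media. Its wheat bran-soybean values went from 45872 and 32679 to 4394 and 5823 in BCC56535, from 16395 and 15074 to 5242 and 7183 in BCC199 and from 42591 and 48345 to 18299.7 and 28449.7 in HUT2365. In glucose it had 20274 and 10894 on day 3 and 14906 and 13188 on day 6 in BCC56535, 7604 and 21800.0 and then 25080.0 and 15753 in BCC199, and 14806 and 12301 and then 14526 and 15524 in HUT2365. On day 6 it therefore lay under glucose in BCC56535 and BCC199 and above it in HUT2365, and its glucose days overlapped in every strain.

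The falls that were steepest over the 3 strains together were those of acu01635_1 and acu02956_1, with mean D of -4.57 and -4.46. For acu01635_1, BCC56535 had 16324 and 8315 normalized reads on day 3 and 251 and 97.8 on day 6. BCC199 went from 2536 and 2741 to 64.6 and 65.4, and HUT2365 from 977 and 1751 to 261 and 321. The libraries of the 2 days were far apart in each strain, and the means differed by 71.0, 41.2 and 4.70 times. In glucose acu01635_1 fell in BCC56535, from 1275 and 446 to 192 and 61.4 (log2 change -2.78, SE 0.67, adjusted p = 0.0055), and was low in both other strains, with 274 and 58.6 then 107 and 146 in BCC199 and 84.6 and 109 then 97.5 and 87.1 in HUT2365. The BCC56535 call was lost without day 3 library A or day 6 library B. acu02956_1 went from 22180.5 and 4703 to 221 and 77.3 in BCC56535, from 1081 and 1253 to 106 and 17.4 in BCC199 and from 655 and 1458 to 183 and 157 in HUT2365. Its BCC56535 day 3 libraries differed from each other several-fold, yet both stood above both day 6 libraries.

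acu02487_1 and acu02488_1 showed the largest gaps in D between strains. acu02488_1 had 2003 and 2889 normalized reads on day 3 and 14.8 and 23.5 on day 6 in BCC56535, 12335 and 11928 and then 7752 and 6239 in BCC199, and 8213 and 6750.3 and then 1550.0 and 1153 in HUT2365. Its day 3 mean was 135 times its day 6 mean in BCC56535, 5.54 times in HUT2365 and 1.73 times in BCC199. acu02487_1 had 127 and 392 on day 3 in BCC56535 and no read in either library on day 6, at least 81.3 times lower when 3 reads per library are taken as the floor. Its D of -8.02 there depends on the constant of 1. In BCC199 it went from 1622 and 1527 to 1009 and 728 and in HUT2365 from 2015 and 1048 to 341 and 350.1. The strain with the most negative D for both IDs was also the strain in which both were highest in glucose. There acu02488_1 had 6491 and 18768 on day 3 and 881 and 4502 on day 6 in BCC56535, a fall of the fitted level (log2 change -2.47, SE 0.58, adjusted p = 0.0046) that was lost without day 3 library B or day 6 library A. Its other glucose libraries held 357 and 742 and then 379 and 318 in BCC199, and 154 and 232 and then 92.1 and 101 in HUT2365. acu02487_1 held 240.4 and 1055 and then 56.5 and 322 in BCC56535 glucose, a difference that did not pass the test (log2 change -1.89, SE 0.75, adjusted p = 0.073).

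In glucose, which the choice of IDs did not use, the share of the 104 that fell from day 3 to day 6 was above that of all IDs in BCC56535 and small in the other strains. In BCC56535, 23 of the 104 fell (22.1%) and 9 rose (8.65%) by limma with Benjamini-Hochberg adjustment over 8509 IDs. Over all IDs, 14.0% fell and 13.6% rose, and among the 6368 IDs at the same wheat bran-soybean day 3 level, 13.0% fell and 14.8% rose. The median log2 change of the 104 was -0.30, against -0.01 over all IDs. These counts depend on single libraries and on the pooled estimate of spread, to which the wheat bran-soybean libraries that made the choice contribute. The counts in the next sentence come without the share of all IDs under the same setting. Without BCC56535 glucose day 3 library B, 13 fell and 8 rose; without day 6 library A, 16 fell and 5 rose; a fit of the BCC56535 glucose libraries alone called 2 falls and no rise. Of the 77 IDs that met the rule without HUT2365 day 3 library B, 17 fell and 6 rose, and of the core of 49, 8 fell and 4 rose. In the same fit 14.0% of all IDs fell and 13.6% rose, so falls in the core do not clearly exceed those of all IDs.

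In BCC199 glucose, 1 of the 104 fell and 0 rose, beside 1.23% and 0.940% of all IDs. In HUT2365 glucose 0 fell and 0 rose, where limma called 0.0353% of all IDs lower and 0% higher. At an unadjusted p under 0.05, 13 of the 104 (12.5%) differed between days in BCC199, 2 (1.92%) in HUT2365 and 47 (45.2%) in BCC56535, near the 15.2%, 1.10% and 39.4% of all IDs. With voom weights the adjusted counts were 1, 0 and 27. These counts and those of the next 2 sentences come without the share of all IDs under the same setting, so they do not set the 104 apart. Leaving out 1 BCC199 library gave 0 to 2 falls and 0 to 4 rises: without day 3 library A 1 fell and 1 rose, without day 3 library B 4 rose and 0 fell, without day 6 library A 2 fell, and without day 6 library B 0 changed. Without HUT2365 glucose day 6 library A, 1 fell. Median log2 changes were -0.06 in BCC199 and 0.01 in HUT2365, beside -0.01 and 0.03 over all IDs. The change was smaller than 0.5 on the log2 scale for 71 of the IDs in BCC199 and 87 in HUT2365, and for 36 in BCC56535. No share of all IDs is set beside these counts, so they do not set the 104 apart. Both day 6 libraries lay under both day 3 libraries for 42 IDs in BCC56535, 26 in BCC199 and 24 in HUT2365, beside 28.0%, 23.6% and 15.9% of all IDs.

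**Figure D3:**
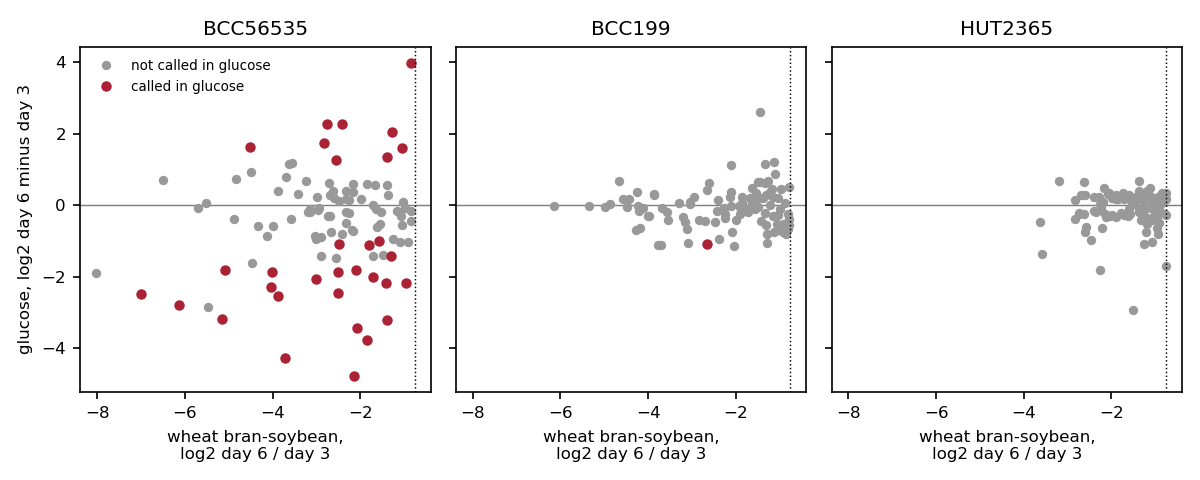
Day 6 against day 3 for the 104 IDs in each strain, with D in wheat bran-soybean on the horizontal axis (log2 ratio of means, dotted line at the limit of -0.75) and the log2 difference in glucose from the fit on the vertical axis. Red points passed the test in glucose: 32 in BCC56535, on both sides of 0, 1 in BCC199 and none in HUT2365, where most points lie near the zero line.

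By fitted log2 change, the largest fall in BCC56535 glucose was that of acu04174_1, whose values are given above and whose means differed 23.4 times (log2 change -4.77, SE 0.82, adjusted p = 0.00048). acu03417_1 followed by that measure, with 762 and 5092 normalized reads on day 3 and 80.5 and 126 on day 6, whose means differed 28.7 times (log2 change -4.28, SE 0.87, adjusted p = 0.0017). Its day 3 libraries differed from each other several-fold and both stood above both day 6 libraries. Its glucose values lay close together in BCC199 and overlapped in HUT2365, with 100.5 and 139 and then 148 and 143 in BCC199 and 183 and 602 and then 333 and 142 in HUT2365. In wheat bran-soybean acu03417_1 went from 85.2 and 218 to 7.36 and 15.7 in BCC56535, from 506 and 502 to 48.1 and 20.9 in BCC199 and from 550.5 and 3294 to 386 and 261 in HUT2365. BCC56535 thus held more of it in glucose than in wheat bran-soybean on both days.

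Other IDs went up in BCC56535 glucose while they went down in wheat bran-soybean. acu00145_1 rose from 361 and 786 to 1734 and 3804 normalized reads (log2 change 2.27, SE 0.36, adjusted p = 0.00024), and both day 6 libraries stood above both day 3 libraries. The fit of the BCC56535 glucose libraries alone did not call this rise. Its wheat bran-soybean values in that strain were 6327 and 6755 on day 3 and 1449.7 and 989 on day 6. In glucose the other strains held 236 and 191 and then 196 and 141 (BCC199), and 2101 and 2178 and then 3006 and 2477 (HUT2365), neither passing the test. acu00118_1 rose from 529 and 864 to 5014 and 2125 (log2 change 2.27, SE 0.75, adjusted p = 0.033), and in wheat bran-soybean it had 1231 and 6633 and then 259 and 914. That call was lost when either day 3 library or day 6 library A was left out, with adjusted p-values over all settings from 0.026 to 0.24. In BCC199 glucose acu00118_1 held 20.9 and 51.4 and then 31.4 and 53.7, and in HUT2365 324 and 363 and then 328 and 305.

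The single fall in BCC199 glucose was that of acu05015_1, from 1013 and 1289.9 to 611 and 481 normalized reads (log2 change -1.07, SE 0.21, adjusted p = 0.013). The days did not overlap, but the call was lost without day 3 library B or day 6 library B. BCC56535 held 6228 and 4139.6 and then 5653 and 4541 in glucose, and HUT2365 4918 and 4696 and then 6394 and 5797. In wheat bran-soybean all 3 strains were lower on day 6, with 4269 and 5173 then 1371 and 1515 in BCC56535, 2702 and 2374 then 459 and 347 in BCC199, and 5760.3 and 5278 then 1647 and 1686 in HUT2365. D was -1.71, -2.65 and -1.73 in this order.

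At the other end were IDs that barely moved in glucose in any strain. acu02053_1 held 608 and 440.2 on day 3 and 495 and 661 on day 6 in BCC56535 glucose, 291 and 341 and then 343 and 332 in BCC199, and 251 and 252 and then 299 and 260.2 in HUT2365. In wheat bran-soybean it went from 961 and 2469.5 to 385 and 339, from 3242 and 3739 to 458 and 394 and from 1999 and 3464 to 861 and 1008 in the same order of strains. Its glucose log2 changes were 0.14, 0.10 and 0.15 with an SE of 0.34 each, and none passed the test. acu00781_1 had 2270.0 and 2269 and then 2393 and 2482 in BCC56535 glucose, 2976 and 2449 and then 2586 and 2409 in BCC199, and 1631 and 1705 and then 1533 and 1414 in HUT2365. Its wheat bran-soybean libraries went from 2034 and 2344 to 922 and 1229.7, from 2088 and 1951 to 1121 and 916 and from 1236 and 821 to 568 and 549, about 2-fold in each strain. On day 3 its glucose mean was 1.34 and 1.62 times that of wheat bran-soybean in BCC199 and HUT2365. In BCC56535 it was 1.04 times, and the libraries of the media overlapped.

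**Figure D4:**
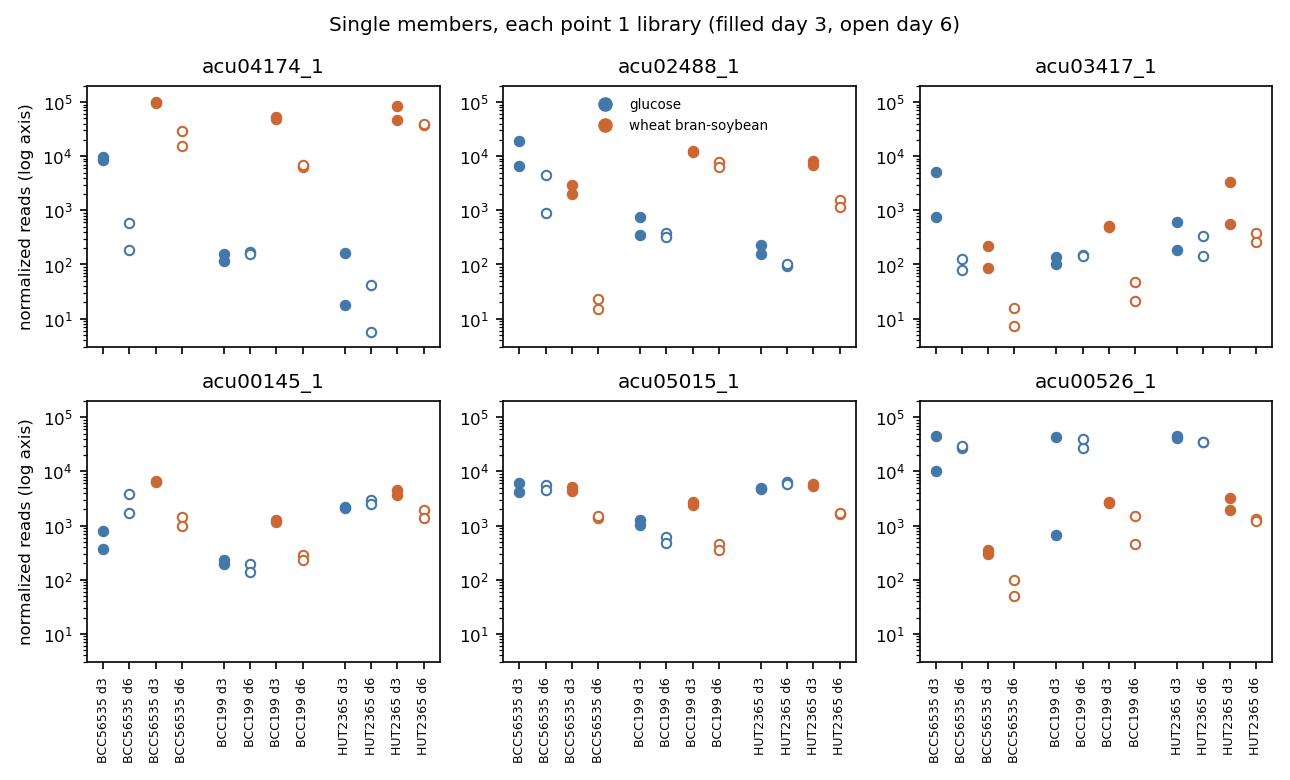
Normalized reads (log axis) of 6 of the 104 IDs in each of the 24 libraries, by strain and day, blue for glucose and orange for wheat bran-soybean, filled for day 3 and open for day 6. Open orange points lie under filled orange points in every strain of all 6 panels, while the blue points keep their level, fall (acu04174_1, acu03417_1 and acu02488_1 in BCC56535, acu05015_1 in BCC199) or rise (acu00145_1 in BCC56535).

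The day effect in glucose differed among strains for 18 of the 104 IDs (17.3%; moderated F test in limma, adjusted p under 0.05), close to the 15.1% of all IDs and 14.6% of IDs at the same level. Without BCC56535 glucose day 6 library A the count was 11. acu04174_1, acu03417_1, acu00145_1, acu05015_1, acu02493_1 and acu00283_2 were among the 18, and acu00118_1 was not (adjusted p = 0.23). acu01635_1 and acu02488_1, described above as falling in BCC56535 glucose, were not among the 18 either. A call in BCC56535 and none in the other strains is thus shown as a difference between strains only for some of the IDs named here.

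Strains also differed in the level of most of the 104 in glucose, at about the rate of all IDs. On day 3, 85 differed among strains (81.7%), beside 73.5% of all IDs and 70.5% of those at the same level, and on day 6, 88 (84.6%), beside 75.6% and 73.6%. BCC56535 had the highest mean on day 3 for 56 of the IDs (53.8%), against 34.4% of IDs at the same level, and on day 6 for 51 (49%), against 35.3%. BCC199 had the highest for 20 and then 18, and HUT2365 for 28 and then 35. Median group means in glucose were 517 and then 344 normalized reads in BCC56535, 278 and then 240 in BCC199, and 276 and then 282 in HUT2365. The sources used here do not say how reads of each strain were assigned to the IDs, and the part of this assignment in these level differences was not tested.

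Clear level differences were those of acu02493_1 and acu03578_1 on day 3. acu02493_1 had 5386 and 7953 normalized reads in BCC56535, 504 and 525 in BCC199 and 35.3 and 53.9 in HUT2365 (adjusted p = 2.9e-09). acu03578_1 had 4865 and 3951 in BCC56535, 1013 and 1019.6 in BCC199 and 497 and 682 in HUT2365 (adjusted p = 4.2e-09). The order of strains was the same for both, and no libraries of different strains overlapped. In wheat bran-soybean on day 3 the order of acu02493_1 was another, with 1204 and 3419 in BCC56535, 9413 and 9284 in BCC199 and 550.5 and 483 in HUT2365, and on day 6 these strains had 56.1 and 74.4, then 1862 and 1611, then 273 and 176. BCC56535 was the strain highest in glucose and lowest in wheat bran-soybean on day 6 for this ID, and there it fell in glucose too, to 468 and 1124 (log2 change -3.17, SE 0.44, adjusted p = 8.8e-05). acu03578_1 had 1669 and 2088 on day 3 and 1110.3 and 1001 on day 6 in BCC56535 wheat bran-soybean, 881 and 950.0 and then 287 and 284 in BCC199, and 1409.5 and 1129.9 and then 759 and 735 in HUT2365.

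On day 6 the strains stood furthest apart, by adjusted p, in acu05015_1 (values above; adjusted p = 7.3e-10) and acu06171_1. The latter had 795 and 759 normalized reads in BCC56535, 226 and 222 in BCC199 and 2750.0 and 2266 in HUT2365 (adjusted p = 9.1e-09), after 448 and 616, then 164 and 233, then 2075 and 2363 on day 3 in the same order. Its wheat bran-soybean values went from 3155 and 2587 to 1203 and 1003 in BCC56535, from 1330.0 and 1216 to 593 and 654 in BCC199 and from 8218 and 13729.5 to 3270.2 and 3411 in HUT2365. HUT2365 was the highest and BCC199 the lowest in both media and on both days.

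Set beside glucose, which gives each strain its own reference level, the 104 IDs were mostly higher in wheat bran-soybean on day 3 and less so on day 6. The day 3 values helped make the choice, so these counts are a description from which nothing is read. On day 3 limma called 61 higher and 21 lower in BCC56535 (all IDs 24.2% and 25.6%), 78 and 5 in BCC199 (24.6% and 26.5%), and 80 and 7 in HUT2365 (25.3% and 24.4%). On day 6 the counts were 30 higher and 39 lower in BCC56535 (22.4% and 22.0%), 46 and 18 in BCC199 (19.9% and 21.4%), and 52 and 14 in HUT2365 (22.0% and 22.2%). The median log2 difference went from 1.71 on day 3 to -0.21 on day 6 in BCC56535, from 3.22 to 0.97 in BCC199 and from 2.50 to 1.22 in HUT2365.

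The IDs took 3 courses relative to glucose. By group means, 50 of them in BCC56535 (48.1%), 69 in BCC199 (66.3%) and 77 in HUT2365 (74%) were above glucose on both days, so their lower day 6 level was still above that of glucose; of the 6368 IDs at the same level, 32.1%, 41% and 42.8% were. A further 25, 21 and 16 (24%, 20.2% and 15.4%) were above glucose on day 3 and not on day 6, beside 18.2%, 12.1% and 10.4%. The remaining 29, 14 and 11 (27.9%, 13.5% and 10.6%) were above it on neither day, beside 30.5%, 36.8% and 38.8%. In BCC56535 that share was close to the share of IDs at the same level. The wheat bran-soybean values behind all 3 courses made the choice, so these shares are a description from which nothing is read. On day 3, 68 of the IDs were above glucose in all 3 strains and 4 in none, and on day 6 these numbers were 39 and 16. No share of IDs at the same level is set beside these numbers, and nothing is read from them.

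acu02956_1 and acu04076_1 had the largest day 3 differences from glucose over the 3 strains. acu02956_1, whose wheat bran-soybean values are given above, had 33.9 and 35.1 normalized reads on day 3 and 51.5 and 62.4 on day 6 in BCC56535 glucose, and almost nothing in the other strains: both BCC199 libraries together held 1 read on each day, and those of HUT2365 held 2 and then 7. In BCC199 the day 3 ratio of wheat bran-soybean to glucose rests on that 1 read, at 2609 with a 95% exact interval from 468 to 103096 that covers counting error only, and in HUT2365 on 2 reads, at 1082 with an interval from 299 to 8945. acu04076_1 went from 41326 and 11376 to 2657 and 359 in BCC56535 wheat bran-soybean, from 1287 and 1528 to 102 and 43.1 in BCC199 and from 303 and 446 to 140.0 and 131 in HUT2365. None of its 12 glucose libraries exceeded 28 normalized reads. On day 3 its mean was 1988, 260 and 16.8 times the glucose mean in BCC56535, BCC199 and HUT2365, and on day 6 it was 230, 24.8 and 5.75 times. It thus stayed above glucose after its decline in each strain.

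acu00526_1 and acu00283_2 were the opposite case, lower in wheat bran-soybean than in glucose while they came down. acu00526_1 had 10196 and 45359 normalized reads on day 3 and 26513 and 28929 on day 6 in BCC56535 glucose, 678 and 42852 and then 27568 and 38885 in BCC199, and 41038 and 45537 and then 34783 and 35221 in HUT2365. In wheat bran-soybean it went from 304 and 357 to 49.8 and 98.8 in BCC56535, from 2583 and 2668 to 1482 and 458 in BCC199 and from 1963 and 3211 to 1339.8 and 1198 in HUT2365. One glucose library, BCC199 day 3 A, was out of line with the other 11 and even under both BCC199 day 3 libraries in wheat bran-soybean. acu00283_2 had 8195 and 7404 on day 3 and 15596 and 25663 on day 6 in BCC56535 glucose, where it rose (log2 change 1.36, SE 0.23, adjusted p = 0.00038), 9359 and 8396 and then 6898 and 4083 in BCC199, and 7367 and 6844 and then 5774 and 6443 in HUT2365. In wheat bran-soybean its values went from 2071 and 2050.2 to 735 and 842 in BCC56535, from 4593 and 4534 to 2204 and 2655 in BCC199 and from 2919 and 2929 to 801 and 900.3 in HUT2365. It was the 1 ID of the 104 called lower than glucose on day 3 in all 3 strains, and 46 were called higher in all 3. No share of all IDs is set beside these counts. The day 3 values helped make the choice, so nothing is read from them.

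**Figure D5:**
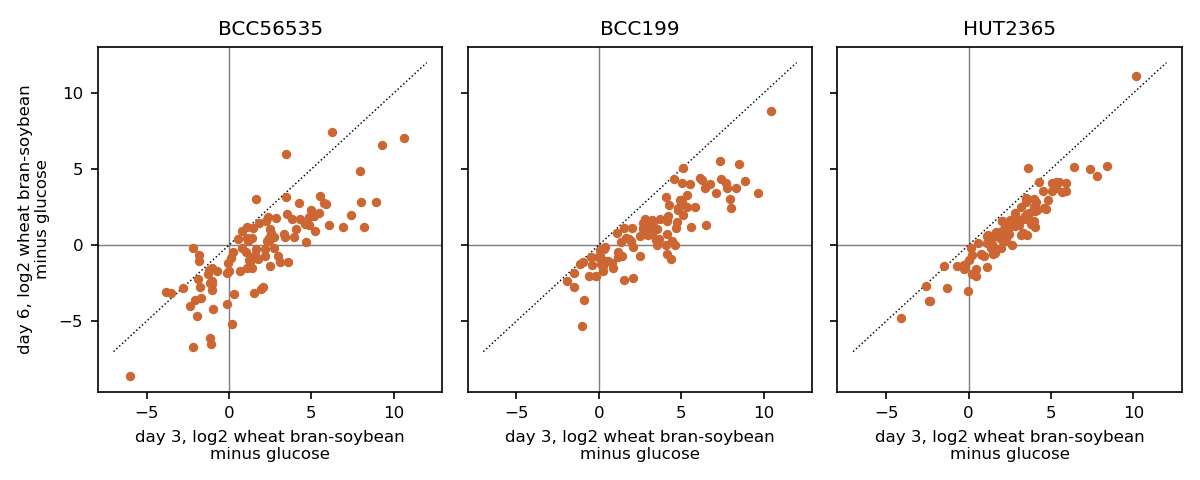
Log2 difference between wheat bran-soybean and glucose on day 3 (horizontal) and on day 6 (vertical) for the 104 IDs in each strain; the dotted line marks equal differences on both days. Most points lie right of 0 and under the dotted line, and those at the lower right were above glucose on day 3 and under it on day 6; BCC56535 has the most of them.

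Each ID consists of a number prefix and a member number, and the sources used here do not say what the prefix stands for. The 104 IDs had 104 different prefixes. Of them, 19 (18.3%) had another of the 104 at the next lower or higher prefix number, compared with 149 of the 6264 other IDs at the same level (2.38%). They formed 9 runs of consecutive numbers, 1 of 3 IDs and the others of 2, and acu02487_1 and acu02488_1, described above as the pair with the largest gap between strains, are such a run. In glucose, which the choice did not use, the same strain had the highest day 3 mean in 6 of the 10 adjacent pairs, beside 39.4% of all 5356 pairs among the 104, and on day 6 also in 6, beside 37.8%. The sign of the BCC56535 glucose day change was shared in 7 of the 10, beside 54.3%. acu02296_1 is in 2 of the pairs, and with only 10 pairs these counts do not set neighbours apart. Whether reads were shared between neighbours could not be separated from these values and was not tested.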

How the data were processed

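RNA of 24 libraries was sequenced on an Illumina HiSeq2000 after removal of ribosomal RNA, per the labels' protocols. HISAT2 2.1.0, Picard and StringTie were used, per the submitters' processing notes. The sources used here name no genome build, annotation, counting tool, strand setting or normalization method. The authors deposited normalized read counts for 8615 IDs, a signal that is never below 1; value minus 1 was a whole multiple of 1 step per library for 100% of low values (within 0.02 of a step), which gave the recovered reads.

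The rule was applied to the deposited values. limma 3.58.1 (R 4.3.3) was fitted with an intensity trend to log2(value + 1) of all 24 libraries with 12 group means and 12 residual degrees of freedom. Contrasts were two-sided, F tests spanned 2 contrasts, and Benjamini-Hochberg adjustment covered the 8509 IDs that reached 10 normalized reads in 2 or more libraries (threshold 0.05; 106 left out). Fold changes on this scale understate those of low IDs. Ratios have the constant of 1 removed, with 3 reads per library as the floor of a group without reads. Intervals and floors cover counting error only. The fit was tested on simulated data. Alternatives changed the pseudocount, the filter, the scaling (trimmed means or quantiles), the libraries fitted, a replicate block, voom weights on the recovered reads and each library in turn; the subsets of 49 and 77 IDs were added after seeing the data.

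The IDs, the naming rule and the tests were chosen with earlier results of these data known. At most 2 IDs per direction were named in each comparison: the most abundant, the largest mean D and gap in D, those at the limits, the largest glucose changes with a mean of at least 100 and libraries that did not overlap, the extremes of medium and of strain differences, and the steadiest in glucose. None of the 8615 IDs matched the 11152 genes of the reference table of assembly Aspac1, so no sequence is shown. Tables and figures were made in Python 3.11.15 (pandas 2.3.3, matplotlib 3.10.9, numpy 2.4.6, scipy 1.17.1).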

Additional observations from a re-analysis of the deposited data

Results flagged for a closer look

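For 6 of the named IDs the change from day 3 to day 6 in glucose differed among the strains (limma, moderated F test over 2 contrasts, Benjamini-Hochberg adjustment over all IDs), which calls for a closer look. No explanation was tested for any of them.

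acu00283_2 had an adjusted p of 0.00096: its log2 change was 1.36 in BCC56535, -0.74 in BCC199 and -0.22 in HUT2365. acu00145_1 (0.0056) had log2 changes of 2.27, -0.35 and 0.35 in the same order. Both IDs went up in BCC56535 glucose, and their calls of a difference among strains held in each of the 20 other settings, with adjusted p-values up to 0.023 and 0.044.

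acu02493_1 (0.0073) had log2 changes of -3.17, -0.16 and -0.75, and lost the call with voom weights alone (adjusted p = 0.16). acu05015_1 (0.008) had 0.00, -1.07 and 0.34, and lost it without BCC199 glucose day 6 library B alone (adjusted p = 0.051).

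The calls of the other IDs were lost in more settings. acu04174_1 (0.019) had log2 changes of -4.77, 0.23 and -1.70, and 5 of 20 settings lost the call, with adjusted p-values from 0.0035 to 0.11 over all of them. acu03417_1 (0.033) had -4.28, 0.30 and -0.61, and 9 of 20 settings lost it, from 0.0076 to 0.17; leaving out BCC56535 glucose day 3 library B gave the highest.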

How the results depend on the processing

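The 104 IDs became 199 with D of -0.5 or lower, and 89 to 120 under the other changes of the rule except D of -1 or lower (72). Leaving out 1 wheat bran-soybean library gave 93 to 110 IDs. In glucose, when the fit held the compared libraries alone, it called 2 IDs in BCC56535 in place of 32, 0 in BCC199 in place of 1, and 11 in place of 18 for the difference among strains. Leaving out 1 library gave 21 to 33 calls in BCC56535, 0 to 4 in BCC199, 0 to 1 in HUT2365 and 11 to 24 for the difference among strains; the median change in BCC199 went from -0.20 to 0.01. No share of all IDs is given for these changed fits. With the 49 core IDs, a choice made after seeing the data, the counts were 12, 9, 40 and 42 for BCC56535, the difference among strains, and the levels on day 3 and day 6. Fewer IDs enter there, and these counts are 24.5%, 18.4%, 81.6% and 85.7% of the core. Over all IDs, 14.0% fell and 13.6% rose in BCC56535 glucose, where 8 of the core fell and 4 rose, so the core does not exceed all IDs there. The difference among strains was called for 15.1% of all IDs, and the levels for 73.5% and 75.6%. Scaling, pseudocount and filter moved no count past 1.5 times, and the cause of the other moves was not tested.

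With the replicate letter as a replicate block, 33 IDs were called in BCC56535, 1 in BCC199, 0 in HUT2365 and 19 for the difference among strains. The share of all IDs under that fit is not given either. Over 66 pairs of groups the deviations of same-lettered libraries correlated between -0.48 and 0.23 (median 0.01), so the letters were not taken to pair the libraries.

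Of the results for single IDs, none changed direction, and those on acu00118_1, acu01635_1, acu02488_1 and acu05015_1 lost the call without single libraries named above. The BCC56535 glucose day calls of acu00145_1, acu00283_2, acu02493_1 and acu03417_1 were each lost in 1 of 12 other settings. For acu00145_1 and acu00283_2 it was the fit of the compared libraries alone. With 2 libraries per group, a change has to be large against their spread to be called.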
